A study of Nothobranchius furzeri with 185 samples.

Results

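Claudins are small proteins that span the cell membrane several times and form the strands of tight junctions, the seals between neighbouring cells of epithelia and endothelia. Some claudins tighten the seal and others form pores for ions or water, so the claudins that a tissue makes set what can pass between its cells. Teleost fish carry additional lettered claudin genes (cldna, cldnb and so on) beside the numbered ones that they share with mammals. The claudins described here are all loci of the deposited gene table whose symbol starts with cldn in upper or lower case, 39 of 23564 loci in all, and each of them was kept. Where several loci share a symbol the locus identifier, or the copy in brackets, is given. Since reads can be exchanged between such copies, the values of cldn2, cldn7a, cldn10, cldn15a, cldn17, CLDN20, CLDN23, cldnb, cldnc, cldnd, CLDND1 and cldne loci are less certain.

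RNA was sequenced from the killifish Nothobranchius furzeri, a short-lived annual fish, in 185 libraries of whole tissue pieces. Brain, liver and skin came from 5 fish of 27 weeks that had spent 4 weeks in tank water with 15 pM rotenone, a blocker of complex I of the respiratory chain given in DMSO, from 5 fish of 27 weeks kept for 4 weeks with DMSO alone (vehicle), and from 5 vehicle fish of 9 weeks. Untreated fish gave livers and skins at 5, 12, 20, 27 and 39 weeks, with 5 libraries per tissue and age and different fish at each age. Tail fins of 45 untreated fish were clipped at 20 weeks and before that at 10 weeks, and the fish were grouped by age at death into 15 long-lived (57.3 to 71.9 weeks), 15 intermediate (45.1 to 50.3 weeks) and 15 short-lived fish (28.7 to 36.4 weeks). The sources used here give neither strain nor sex, and the libraries of a group come from separate fish, but brain, liver and skin of each vehicle or rotenone group come from the same 5 fish, and some untreated fish gave both liver and skin. Levels are RPKM as deposited (reads scaled to gene length and library size), and changes are log2 fold changes ± standard error from edgeR's quasi-likelihood test on counts, called where the Benjamini-Hochberg adjusted p over all genes tested is under 0.05. In pieces of tissue, fewer cells of a type and less RNA per cell cannot be told apart.

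Libraries held between 14970721 and 54947376 counts. The labelled tissues carried their markers, as mean log2 CPM over each list. CPM are counts scaled to library size with TMM factors, which set most genes level between libraries. Keratinocyte loci read 5.16 to 6.16 in fins and 4.45 to 5.98 in skins, against 1.55 to 4.10 in livers. Hepatocyte loci read 9.24 to 12.36 in livers, and neuronal loci 5.48 to 6.51 in brains and at most -0.03 elsewhere. Some libraries stood apart. The 12-week skin of fish JM109 read 8.63 for hepatocyte loci, against 2.88 to 3.28 in the other 12-week skins, and held 50.6 RPKM of the liver claudin cldn15la, against 0.16 to 0.35 RPKM in those. Testis germ-cell loci read 5.32 in the rotenone skin of MR30 and 4.33 in the vehicle skin of MC7, against at most -0.10 in the other skins of these groups. Without the skin of JM109 the claudins called, as counted further on, were 8 at 12 over 5 weeks, 11 at 39 over 12 weeks and 15 between fin and skin, and without that of MC7 23 between skin and liver and 23 between skin and brain at 27 weeks. The share of all genes called without these skins is not given, so these counts cannot be set against it.

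Skin and fin shared a set of lettered claudins that liver and brain made little of, whereas liver and brain were each led by another claudin. Summed over all 39 loci, mean claudin RPKM was 1436 in fins, 706 in skins, 452 in livers and 243 in brains. In each tissue the 5 highest loci supplied most of that sum, with 85.5% in fins, 82.8% in skins, 87.5% in livers and 82.4% in brains. A mean of at least 1 RPKM was reached by 20 loci in fins, 21 in skins, 14 in livers and 14 in brains. The count in skins includes cldn15la, with a mean of 2.01 and a median of 0.45 RPKM. Its mean takes in the skin of JM109, with 50.6 RPKM. Of the loci that reached a mean of 1 RPKM in any tissue, 12 were highest in fins, 9 in brains, 6 in livers and 1, cldnk, in skins (5.92 RPKM, against 5.58 RPKM in fins). The order of the tissues depends on the scaling. With the scaling of the tests (TMM-scaled CPM per kilobase, over the 30 loci with a derived length) the sums were 1249 in fins, 749 in skins, 751 in livers and 139.6 in brains, so that skins were not above livers. Of the sum in livers 592 came from cldn15la alone, a locus of only 270 bases, which had 2.01 in skins. By that measure 11 loci were highest in fins, 9 in livers, 7 in brains and 1 in skins, since cldn11a, cldn12 and cldnh were then highest in liver.

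**Figure D1:**
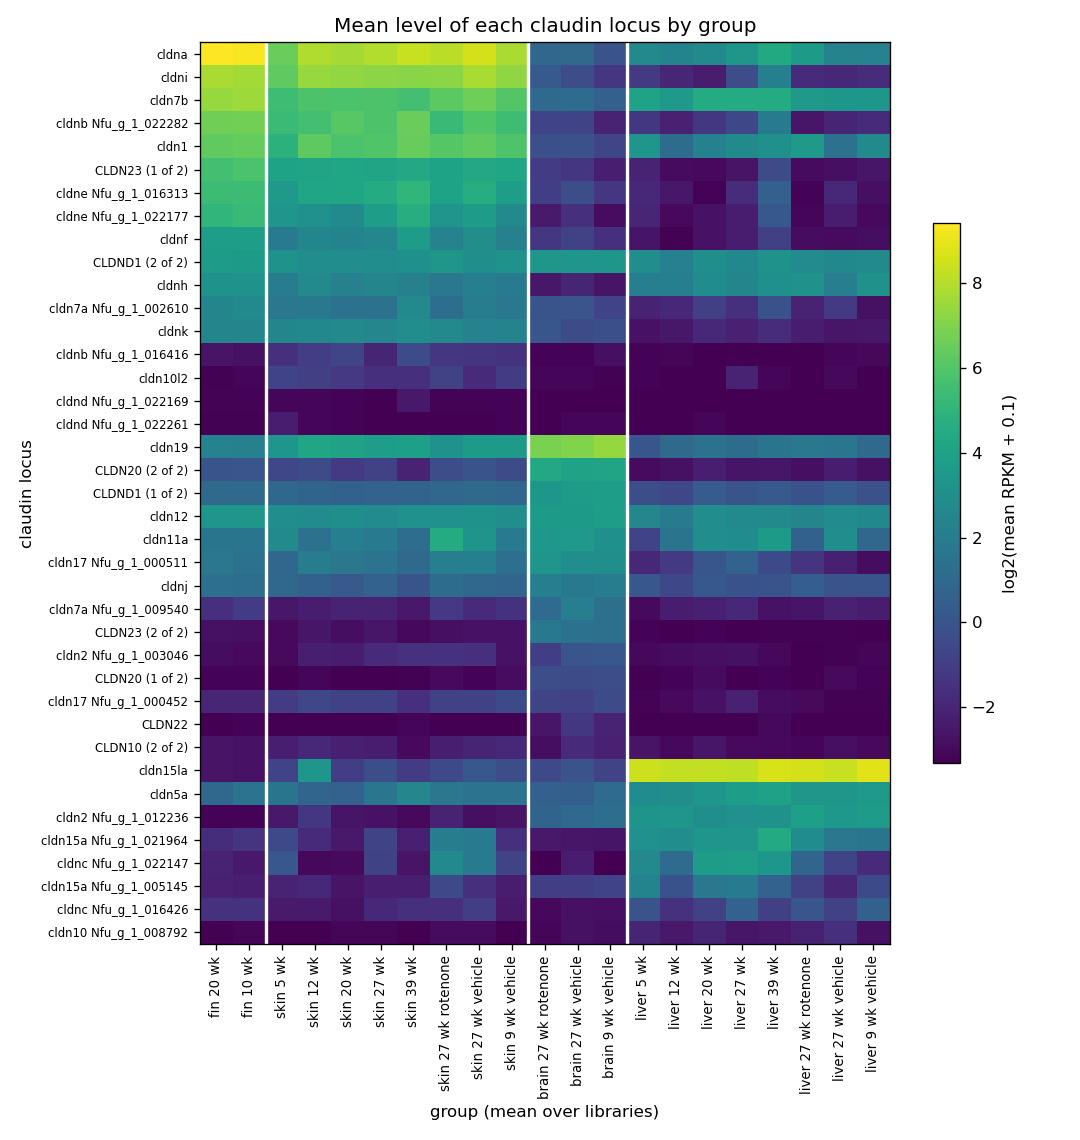
Mean level of each of the 39 claudin loci (rows, ordered by the tissue with the highest mean RPKM) in each group (columns), as log2 of mean RPKM plus 0.1 on the colour scale. The fins and skins share a block of high lettered claudins led by cldna, the livers stand out for cldn15la with 349 RPKM and the brains for cldn19 with 147 RPKM.

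In the fins, cldna stood first with 652 ± 179.6 RPKM (SD over 90 libraries, which come from 45 fish clipped at both ages), followed by cldni with 213, cldn7b with 179.9, cldnb Nfu_g_1_022282 with 101 and cldn1 with 81.8 RPKM. In the skins the first 5 were the same loci, with cldna at 246 ± 119 RPKM (SD, n = 35, untreated and vehicle), cldni at 155, cldn1 at 64.2, cldn7b at 60.6 and cldnb Nfu_g_1_022282 at 58.8 RPKM. Claudin 1 is the claudin of the mammalian epidermis, where it keeps water in, and claudin 7 lies along the sides of epithelial cells in mammals. The gap between neighbours in this order exceeded the larger SD of the pair for cldna over cldni and for cldn7b over cldnb in fins, and for cldni over cldn1 in skins, but not for cldna over cldni in skins. These SD, and those of the other tissues below, run over all ages and do not pair the loci within a library. A gap within them can therefore still be present in each library.

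Liver was led by cldn15la, which in zebrafish marks intestinal epithelium, with 349 ± 113 RPKM (SD, n = 35). Its nearest neighbour, cldn7b, had 16.8 RPKM. After it came cldn5a, whose mammalian counterpart seals endothelium, with 11 RPKM, cldn2 Nfu_g_1_012236, whose mammalian counterpart forms cation pores, with 9.87 RPKM and cldn15a Nfu_g_1_021964 with 9.26 RPKM, and neighbours among these 4 did not differ beyond their spread. The mean of cldn15a Nfu_g_1_021964 takes in single high livers, up to 79.7 RPKM, and its median was 4.34 RPKM. By median CLDND1 (2 of 2) with 6.49, cldn12 with 5.99, cldna with 5.97 and cldnh with 4.44 RPKM lay above it. The counts behind cldn15la come from a locus of only 270 bases, so its RPKM is high for its reads. Brain was led by cldn19, a claudin of Schwann cells and kidney tubules in mammals, with 147 ± 25.7 RPKM (SD, n = 10, vehicle). It was followed by CLDN20 (2 of 2) with 16.6 RPKM, the claudin-domain gene CLDND1 (1 of 2) with 13.3 RPKM, cldn12 with 13.2 RPKM and CLDND1 (2 of 2) with 10.4 RPKM. Here the gap of CLDN20 (2 of 2) over CLDND1 (1 of 2), and of CLDND1 (1 of 2) over cldn12, did not exceed the larger SD of the pair. The SD of CLDN20 (2 of 2) takes in the 27-week brain of MC10, with 5.28 RPKM, against 17.4 RPKM in the nearest brain of its group.

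The 3 tissues of the same 5 vehicle fish of 9 weeks allow the levels to be tested. Of 29 claudins tested, 24 differed between skin and liver (16 higher and 8 lower in skin), 25 between skin and brain (15 higher, 10 lower) and 23 between brain and liver (12 higher, 11 lower in brain). Among all genes tested, 64.1%, 75.1% and 79.1% were called in these comparisons, with 34.5% higher and 29.6% lower in skin than in liver, 36.1% and 39.1% in skin than in brain, and 43% and 36.1% in brain than in liver. The median log2 fold change of the claudins was 1.90 between skin and liver, against 0.03 over all genes, 1.11 between skin and brain, against -0.05, and -0.25 between brain and liver, against 0.19.

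The 5 leading claudins of the skin were all called higher there than in liver and in brain. The 9-week skins had 110.3, 119, 173, 187 and 189.8 RPKM of cldni, against 0, 0.05, 0.22, 0.32 and 0.44 RPKM in the livers, a log2 fold change of 8.77 ± 0.41 (edgeR adjusted p = 2.59e-11). For cldna the skins had 122, 174, 221, 272 and 314 RPKM, against 2.74, 4.15, 5.23, 5.61 and 7.01 RPKM in the livers (4.71 ± 0.29). Each skin was far above each liver for both. cldnb Nfu_g_1_022282 had 20.6, 26.1, 38, 62.6 and 71.1 RPKM in the skins, against 0, 0, 0.22, 0.27 and 0.47 RPKM in the livers (7.01 ± 0.59). Between skin and liver cldn1 rose by 2.41 ± 0.24 (59.1 ± 13.8 against 6.62 ± 2.62 RPKM, SD, n = 5 each) and cldn7b by 1.90 ± 0.24 (64.5 ± 25.1 against 10.21 ± 2.3 RPKM). Against brain, cldni gave 9.66 ± 0.41, cldnb Nfu_g_1_022282 8.88 ± 0.63, cldna 8.62 ± 0.35, cldn1 7.50 ± 0.31 and cldn7b 6.25 ± 0.29.

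Other claudins of the skin had next to no reads in the livers. Both cldne loci stood at 7.43 ± 0.62 (Nfu_g_1_016313) and 6.98 ± 0.71 (Nfu_g_1_022177) in skin over liver, CLDN23 (1 of 2) at 7.12 ± 0.61 and cldnf at 5.99 ± 0.59, with at most 5 counts of any of these in a liver of 9 weeks. cldnk stood at 5.35 ± 0.61 and cldn7a Nfu_g_1_002610 at 5.32 ± 0.44. In skin over brain cldne Nfu_g_1_022177 stood at 8.03 ± 0.70, CLDN23 (1 of 2) at 7.91 ± 0.59 and cldnh at 6.50 ± 0.65. All of these were called. cldni, given above, the cldne loci, CLDN23 (1 of 2), cldnf and cldnk did not pass the filter on low counts in livers alone. cldnb Nfu_g_1_022282 and cldn7a Nfu_g_1_002610 passed it in untreated livers but not in the vehicle and rotenone livers, which include these. In brains alone cldni, cldnb Nfu_g_1_022282, the cldne loci, CLDN23 (1 of 2) and cldnh did not pass it. All were tested here through tissues where they are high, so these calls over liver or brain are no independent support. The size of these folds rests on very few counts in liver or brain.

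cldn15la and several further claudins of the liver were lower in skin and brain, while cldn7b, second in the liver, was higher in skin as given above. The skins had 0.13, 0.27, 0.73, 1 and 1.39 RPKM of cldn15la and the brains 0, 0.3, 0.38, 0.75 and 1.09 RPKM, against 395, 459.5, 473, 489 and 518 RPKM in the livers. The log2 fold change was -10.09 ± 0.44 in skin and -11.27 ± 0.47 in brain, with no overlap between the tissues. cldn2 Nfu_g_1_012236 fell by 8.36 on the log2 scale in skin (0.062 RPKM, against 13 RPKM in liver) and cldn5a by 2.82 (2.74 RPKM, against 11.7 RPKM). cldnh was near 0 in brain, with 0.064 RPKM, against 8.81 RPKM in liver (-8.52 ± 0.67), and in skin it stood at -2.02 ± 0.45 against liver. cldn15a Nfu_g_1_021964 fell to 0.246 RPKM in skin and 0.066 RPKM in brain, against 3.01 RPKM in liver (-4.37 ± 0.63 and -6.77 ± 0.74), and cldn15a Nfu_g_1_005145 was at -3.34 ± 0.36 in skin. In brain over liver cldn1 was at -5.08 ± 0.30, cldn7b at -4.35 ± 0.28, cldn2 Nfu_g_1_012236 at -3.96 ± 0.36, cldn5a at -3.93 ± 0.28 and cldna at -3.90 ± 0.31, all called. cldn15la did not pass the filter on low counts in skins or in brains alone. Nor did cldn2 Nfu_g_1_012236 in skins, or cldnh and cldn15a Nfu_g_1_021964 in brains. They were tested through tissues where they are higher, so these calls are no independent support. Their folds rest on few counts in the lower tissue.

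The brains had 153, 156, 162, 165 and 198 RPKM of cldn19, against 1.81, 1.87, 1.87, 1.99 and 2.29 RPKM in the livers (4.93 ± 0.18), while the skins had 8.51, 11.3, 12.3, 13.8 and 14.4 RPKM (-3.06 ± 0.16 in skin against brain). Every brain lay above every skin, and every skin above every liver. CLDN20 (2 of 2) had 17.2 RPKM in brain, against 0.048 RPKM in liver (6.93 ± 0.35), and CLDND1 (1 of 2) had 1.71 RPKM in skin, against 13.7 RPKM in brain (-2.28 ± 0.17). Of the claudins known from myelin, cldn11a, whose mammalian counterpart serves oligodendrocytes and the Sertoli cells of the testis, had 8.26 RPKM in brain, against 1.73 RPKM in liver (0.80 ± 0.30, a call lost without the liver of MC2 or MC5 or the brain of MC4). At 27 weeks its change between brain and liver was -0.66 ± 0.64 and not called. The order of brain and liver for cldn11a depends on the scaling. Over untreated and vehicle libraries brains had 10.0 RPKM and livers 5.70 RPKM, but 5.80 and 8.75 as TMM-scaled CPM per kilobase. cldnk, which in zebrafish marks myelinating glia, had 5.16 RPKM in skin, against 0.776 RPKM in brain (3.47 ± 0.50), and in brain over liver it was at 1.88 ± 0.62.

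Several further claudins were called higher in brain. cldn17 Nfu_g_1_000511 was at 6.17 ± 0.49, CLDND1 (1 of 2) at 2.63 ± 0.17 and cldn7a Nfu_g_1_002610 at 1.84 ± 0.47 in brain over liver. CLDN23 (2 of 2) had 2.49 RPKM in brain and no count in any of the 5 livers, so no fold is given. Its call in skin over liver, counted above, was made against the same 5 livers. In vehicle and rotenone livers alone cldn17 Nfu_g_1_000511, cldn7a Nfu_g_1_002610 and CLDN20 (2 of 2) did not pass the filter on low counts. CLDN23 (2 of 2) passed it neither in livers nor in skins alone. The calls of these claudins against those tissues are thus no independent support. In skin over brain CLDN23 (2 of 2) was at -4.82 ± 0.57, cldn2 Nfu_g_1_012236 at -4.40 ± 0.51, CLDN20 (2 of 2) at -3.91 ± 0.25, cldn15a Nfu_g_1_005145 at -1.53 ± 0.35, cldn17 Nfu_g_1_000511 at -0.97 ± 0.31 and cldnj at -0.54 ± 0.14.

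Directions between tissues rest on the scaling for the claudins with small differences. TMM factors set the tissues level for most genes, whereas scaling to total counts, tried after the data were seen, moved the median of all genes by 0.73 for skin over liver, -0.72 for skin over brain and 1.46 for brain over liver. The calls at 9 weeks then stood at 22 higher and 6 lower, 12 higher and 12 lower, and 16 higher and 8 lower, and at 27 weeks for brain over liver at 18 higher and 8 lower, against 11 and 10 with TMM. Here and below, the share of all genes called is not given for alternative settings, so such counts cannot be set against it. Between skin and liver cldn12, a widely made claudin, was at -0.40 with TMM and at 0.33 with total counts, and CLDND1 (2 of 2) at -0.32 and 0.44, and their RPKM were also higher in skin (7.65 against 6.07 RPKM, and 8.87 against 6.56 RPKM). The call of CLDND1 (2 of 2) was lost without any of 11 single libraries. None of cldna, cldni, cldn1, cldn15la, cldn5a and cldn19 changed direction.

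The tissues of other vehicle fish, of 27 weeks, were compared in the same way. In skin over liver cldni stood at 9.46 ± 0.78, cldna at 5.42 ± 0.61 and cldn15la at -9.25 ± 0.47, and in brain over liver cldn19 at 3.98 ± 0.35. As at 9 weeks, cldni and cldn15la were tested through the tissue where they are high. Skin over liver gave 17 higher claudins, of which 16 were among the 16 at 9 weeks, and all 4 lower ones were among the 8 at 9 weeks. Skin over brain shared 14 of 14 higher (of 15 at 9 weeks) and 8 of 8 lower claudins (of 10), and brain over liver 10 of 11 higher (of 12) and 9 of 10 lower ones (of 11). The share of all genes called at 27 weeks was 51.6% for skin over liver (27.9% higher, 23.7% lower), 65.1% for skin over brain (32.2% and 32.9%) and 68.3% for brain over liver (35.8% and 32.5%). How many of all genes were called at both ages is not given, so the shared calls are not read as particular to claudins. With the fish as a replicate block, cldn15a Nfu_g_1_021964 in skin over brain at 27 weeks was at 3.91 and not called, against 5.88 without it, cldnj (1 of the lower claudins) at -0.46 was not called either, and 20 claudins were called, against 22, and without the skin of MC7 cldn15a was at 2.33.

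Fin and skin are both covered by epidermis, and both were led by the same 5 claudins. Of 27 claudins tested between fins of 10 weeks and untreated skins of 12 weeks, 18 were called, 12 higher and 6 lower in fin, where 61.9% of all genes were called, 32.6% higher and 29.3% lower. The fins had 325, 567 and 996 RPKM of cldna (lowest, median and highest of 45), against 166, 210.1, 264, 283 and 285 RPKM in the 5 skins (1.07 ± 0.21, adjusted p = 1.53e-05). For cldn7b the fins had 127, 176 and 269 RPKM, against 48.1, 49.7, 55.1, 65.7 and 67 RPKM in the skins (1.41 ± 0.14). Every fin lay above every skin for both.

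Also higher in fin were cldne Nfu_g_1_022177 (1.93 ± 0.36, 39.9 ± 17.9 against 8.63 ± 1.54 RPKM), CLDN23 (1 of 2) (1.39 ± 0.28, 55.1 ± 19.2 against 17.1 ± 5.11 RPKM) and cldnf (0.99 ± 0.28, 13.8 ± 5.23 against 5.71 ± 1.76 RPKM). cldne Nfu_g_1_016313 (0.94 ± 0.35) and cldnb Nfu_g_1_022282 (0.80 ± 0.35) were called higher too, but not without the skin of JM110 or JM112 (0.75 and 0.62 without JM112), and for cldnb not without JM104 or JM109 either. The fins had 2.85, 4.31 and 6.78 RPKM of cldn19, against 12.2, 16.2, 19.1, 21.4 and 23.5 RPKM in the skins (-2.30 ± 0.14, adjusted p = 3.93e-21), so every fin was below every skin. Also lower in fin were cldn17 Nfu_g_1_000511 (-0.87 ± 0.24, 2.69 ± 1.03 against 3.96 ± 1.53 RPKM), cldnk (-0.38 ± 0.16, a call lost without the skin of JM104 or JM112 and with total counts, at -0.10) and, at under 1 RPKM in both tissues, cldn17 Nfu_g_1_000452 (-2.16 ± 0.40), CLDN10 (2 of 2) (-1.89 ± 0.38) and cldn15a Nfu_g_1_005145 (-0.88 ± 0.24). For cldn15a Nfu_g_1_005145 the medians were 0.11 RPKM in fin and 0.12 RPKM in skin, and the highest skin had 0.43 RPKM. The remaining higher ones were cldnj (0.41 ± 0.10), CLDND1 (2 of 2) (0.41 ± 0.10), cldn12 (0.27 ± 0.09) and, at under 1 RPKM, cldnc Nfu_g_1_016426 (1.17 ± 0.46) and cldn7a Nfu_g_1_009540 (1.68 ± 0.74). cldn1 had 83.5 ± 15.4 RPKM in fin, against 76 ± 8.58 RPKM in skin (-0.16 ± 0.12, not called), and cldni 202 ± 40.5 against 175 ± 52.8 RPKM (-0.10 ± 0.14, not called). The fins also came from another arm of the study and from 1 µg of RNA, against 2.5 µg for skins, and tissue, arm and input cannot be told apart. With single skins left out 14 to 17 claudins were called, and DESeq2 called 10 higher and 10 lower. Muscle loci read -1.99 to 0.87 in fins and 3.43 to 5.95 in skins, and their part in the result was not tested.

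In the skin, most of the claudins called between ages with TMM scaling were higher in older fish. With scaling to total counts this did not hold at 39 over 12 weeks, as given further on. At 12 over 5 weeks 5 of 25 claudins tested were called (4 higher and 1 lower, with 31.2% of all genes called, 14.6% higher and 16.6% lower), at 39 over 12 weeks 12 of 25 (11 higher and 1 lower, with 49.4% of all genes called, 24.3% higher and 25.1% lower), and at 39 over 5 weeks 16 of 25 (13 higher and 3 lower, with 54.5% of all genes, 25.6% higher and 28.9% lower). Over all 5 ages 15 of 25 changed, with 66.5% of all genes, and these were the claudins called at 39 over 5 weeks except cldn19. The median log2 fold change of the claudins was 0.17, 0.55 and 0.60 in these comparisons, against 0.01, 0.06 and -0.03 over all genes. The comparisons share their skins.

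**Figure D2:**
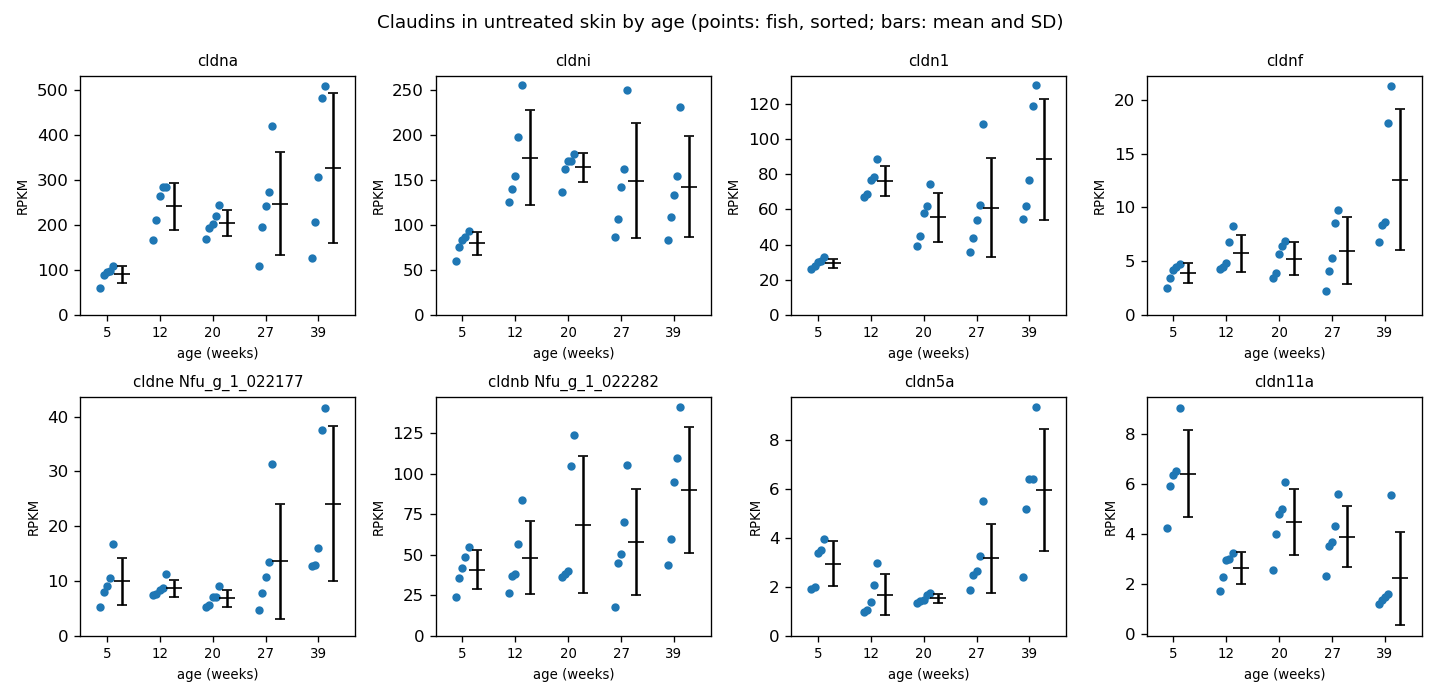
RPKM of 8 claudins in untreated skins at 5, 12, 20, 27 and 39 weeks, with a point for each of 5 fish and the mean ± SD beside them. cldna, cldni and cldn1 are lowest at 5 weeks, cldne, cldnf and cldn5a are highest at 39 weeks with a wide spread between fish, and cldn11a is highest at 5 weeks.

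Of the 5 leading claudins of the skin, cldna, cldni and cldn1 were already higher at 12 weeks. The skins had 59.3, 88.4, 94.6, 97.9 and 109 RPKM of cldna at 5 weeks, 166, 210.1, 264, 283 and 285 RPKM at 12 weeks and 126, 207, 306, 481 and 509 RPKM at 39 weeks. Every skin of 12 and of 39 weeks lay above every skin of 5 weeks, while the 39-week skins spread widely around those of 12 weeks. The log2 fold change was 1.36 ± 0.31 at 12 over 5 weeks (adjusted p = 0.00237), 0.81 ± 0.31 at 39 over 12 weeks (adjusted p = 0.0318) and 2.17 ± 0.32 at 39 over 5 weeks (adjusted p = 5.95e-06). The call between 39 and 12 weeks was lost without the skin of JM104, JM112, JM13 or JM1, with 0.53 without JM1.

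For cldn1 the skins had 25.9, 27.7, 29.9, 30.4 and 32.8 RPKM at 5 weeks, 67.4, 68.8, 76.6, 78.6 and 88.7 RPKM at 12 weeks and 54.4, 61.9, 76.7, 119 and 131 RPKM at 39 weeks. At 20 and 27 weeks 9 of the 10 skins lay between 35.9 and 74.3 RPKM, above every skin of 5 weeks. cldn1 rose by 1.30 ± 0.24 at 12 over 5 weeks without overlap. At 39 over 5 weeks cldn1 rose by 1.88 ± 0.24 (adjusted p = 1e-06), and at 39 over 12 weeks by 0.58 ± 0.23 (adjusted p = 0.0422). The second call was lost without any of 7 single skins of 12 or 39 weeks (0.44 without JM13), without the filter on low counts and with scaling to total counts (0.22). cldni had 59.3, 75.5, 83.1, 86.2 and 92.9 RPKM at 5 weeks, 125, 140.2, 154, 198 and 256 RPKM at 12 weeks and 83.1, 109, 134, 154 and 231 RPKM at 39 weeks. It rose by 1.08 ± 0.26 at 12 over 5 weeks without overlap, and between 39 and 12 weeks its change was 0.09 ± 0.26 (adjusted p = 0.802). cldn17 Nfu_g_1_000511, whose mammalian counterpart forms anion pores, had 3.96 ± 1.53 RPKM at 12 weeks, against 1.76 ± 0.62 RPKM at 5 weeks (1.1 ± 0.36), a call lost without the skin of JM100, JM102 or JM116.

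Besides cldna and cldn1, further claudins were called higher at 39 weeks than at both younger ages without a call at 12 over 5 weeks. cldnf had 2.46, 3.45, 4.2, 4.48 and 4.73 RPKM at 5 weeks, 4.25, 4.43, 4.77, 6.8 and 8.28 RPKM at 12 weeks and 6.78, 8.36, 8.62, 17.9 and 21.3 RPKM at 39 weeks (1.49 ± 0.33 over 12 weeks, 1.98 ± 0.33 over 5 weeks). cldne Nfu_g_1_022177 had 5.17, 8.03, 9.02, 10.6 and 16.8 RPKM at 5 weeks, 7.34, 7.61, 8.31, 8.68 and 11.2 RPKM at 12 weeks and 12.7, 12.8, 16, 37.5 and 41.6 RPKM at 39 weeks (1.83 ± 0.37 and 1.56 ± 0.37). In both genes 2 of the 5 skins of 39 weeks were far above the other 3. cldne Nfu_g_1_016313 rose by 1.26 ± 0.41 over 12 weeks and 1.82 ± 0.42 over 5 weeks, and cldnb Nfu_g_1_022282, which in zebrafish marks the lateral line primordium and skin, by 1.25 ± 0.41 and 1.43 ± 0.41. cldn7a Nfu_g_1_002610 rose by 1.21 ± 0.43 and 1.22 ± 0.43, but neither call held without the skin of JM13 or of JM18, nor over 12 weeks without JM116 or over 5 weeks without JM100.

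In the skin cldn5a, named above for its mammalian counterpart in endothelium, followed another course. The skins had 1.91, 2, 3.38, 3.49 and 3.95 RPKM at 5 weeks, 0.96, 1.04, 1.39, 2.06 and 2.95 RPKM at 12 weeks, 1.34, 1.42, 1.46, 1.66 and 1.75 RPKM at 20 weeks, 1.85, 2.49, 2.64, 3.27 and 5.52 RPKM at 27 weeks and 2.4, 5.18, 6.4, 6.42 and 9.33 RPKM at 39 weeks. It was lowest at 12 and 20 weeks, and 4 of the 5 skins of 39 weeks lay above every skin of 5, 12 and 20 weeks. The change was 2.21 ± 0.38 over 12 weeks (adjusted p = 4.81e-05) and 1.32 ± 0.37 over 5 weeks (adjusted p = 0.00395). The 17 endothelial loci, as mean log2 CPM, read 2.24 to 2.69 in skins of 5 weeks, 2.33 to 2.57 at 12 weeks and 2.11 to 2.45 at 39 weeks, with overlap between the ages.

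Smaller rises at 39 over 5 weeks were called for cldnk (0.73 ± 0.22, and 0.72 ± 0.22 over 12 weeks), cldn12 (0.51 ± 0.15), cldn19 (0.75 ± 0.29) and the barely counted cldnb Nfu_g_1_016416 (0.682 RPKM, against 0.234 RPKM). CLDND1 (2 of 2) rose over 12 weeks alone (0.55 ± 0.20). Lower at 39 weeks than at 5 weeks were cldn11a (-1.19 ± 0.40), CLDN20 (2 of 2) (-1.67 ± 0.55, 0.14 ± 0.125 RPKM against 0.56 ± 0.269 RPKM) and cldnj, which zebrafish need to form ear stones (-0.67 ± 0.21, 0.904 ± 0.154 RPKM against 1.79 ± 0.284 RPKM). The skins had 4.24, 5.91, 6.34, 6.52 and 9.04 RPKM of cldn11a at 5 weeks, 1.69, 2.25, 2.96, 2.98 and 3.24 RPKM at 12 weeks and 1.18, 1.34, 1.45, 1.58 and 5.54 RPKM at 39 weeks. The fall was there at 12 weeks without overlap (-1.37 ± 0.40), and the 39-week skin of JM24 alone stood as high as some 5-week skins (-1.91 without it). cldn7b, the fourth claudin of the skin by level, was called at neither age (0.34 ± 0.25 at 12 over 5 weeks and 0.48 ± 0.25 at 39 over 5 weeks), nor was CLDN23 (1 of 2).

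The rises at 39 weeks depend on the scaling. Scaling to total counts, tried after the data were seen, moved the median of all genes by -0.39 at 39 over 12 weeks and -0.32 at 39 over 5 weeks, and then 3 claudins were called higher and 4 lower over 12 weeks, and 9 and 3 over 5 weeks. DESeq2 gave 11 and 3, and 14 and 6. The share of all genes called is not given for either setting. Under total counts cldn5a still stood at 1.82, cldne Nfu_g_1_022177 at 1.48 and cldnf at 1.14 over 12 weeks, all called, while cldna was at 0.43, cldne Nfu_g_1_016313 at 0.89, cldnb Nfu_g_1_022282 at 0.90 and cldnk at 0.34, not called.

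Of the 30 claudins with a derived length 15 were under 1000 bases, and of all genes under 1000 bases 31.3% were called higher and 25.1% lower at 39 over 12 weeks, against 14.1% and 24.4% of genes over 4000 bases. The 25 keratinocyte loci read 4.45 to 5.47 at 5 weeks, 5.04 to 5.79 at 12 weeks and 5.02 to 5.57 at 39 weeks (mean log2 CPM), and the 33 muscle loci 4.35 to 5.52, 4.76 to 5.37 and 3.43 to 5.30, with overlap between the ages in both lists. Their part in the result was not tested. Of 61 tight junction partners tested (scaffolds, occludins, polarity proteins and adhesion molecules, 63 loci from a list written from general knowledge), 4 were called higher and 24 lower at 39 over 12 weeks, where 24.3% of all genes were called higher and 25.1% lower, with a median of -0.09, against 0.06 over all genes. The scaffolds magi1b Nfu_g_1_003022 (-3.58 ± 0.37), magi2 Nfu_g_1_008341 (-2.60 ± 0.32) and inadl Nfu_g_1_015672 (-2.44 ± 0.27) and the tricellular junction protein marveld2a Nfu_g_1_006501 (-2.55 ± 0.33) fell. The partners have a median length of 2952 bases, against 961 bases for the claudins. At 12 over 5 weeks 14 partners were called higher and 2 lower, where 14.6% and 16.6% of all genes were.

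**Figure D3:**
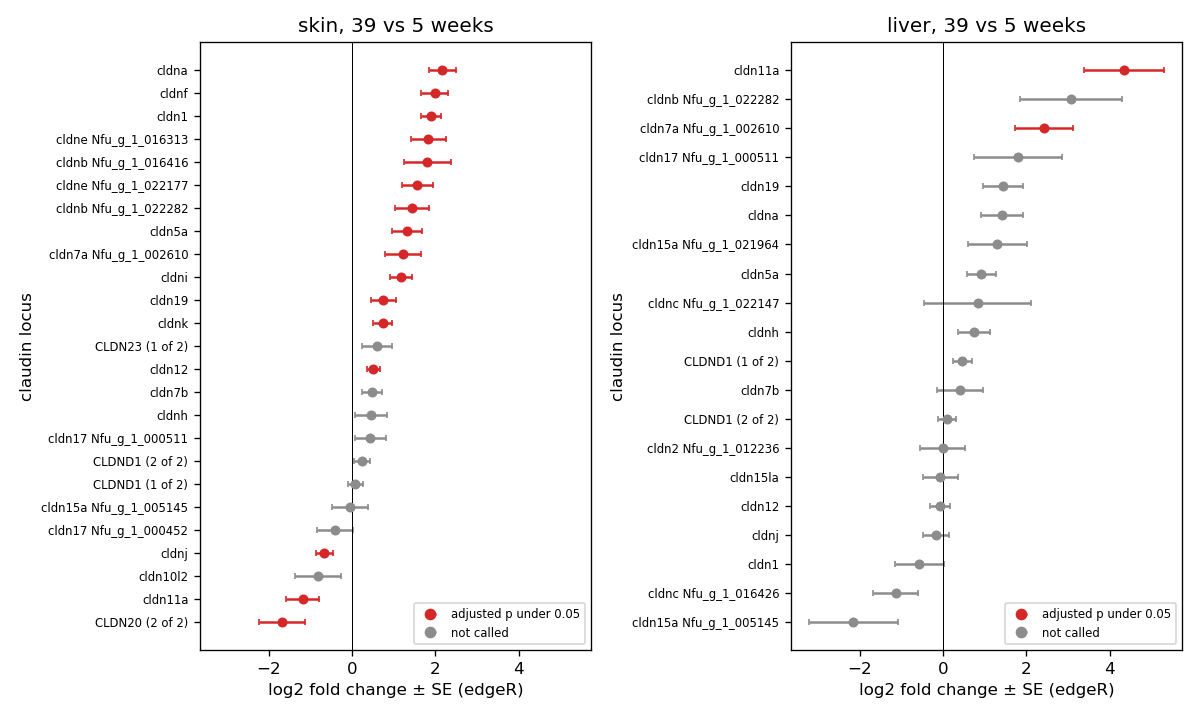
Log2 fold change ± standard error of each claudin tested at 39 over 5 weeks, in skin and in liver, with calls in red. In skin 13 claudins are called higher and 3 lower, and in liver 2 are called higher, cldn11a and cldn7a Nfu_g_1_002610, with wide errors for most others.

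In the untreated livers few claudins, as few of all genes, were called between ages by edgeR. At 12 over 5 weeks 2 of 20 claudins were called, both higher, with 13.5% of all genes (5.51% higher), at 39 over 5 weeks 2 of 20, both higher, with 12% (5.22% higher), over all 5 ages 2 of 20, with 12.9%, and at 39 over 12 weeks 0 of 20, with 0% (edgeR, with 3 claudins at an unadjusted p under 0.05, and 1 called by DESeq2). At 39 over 12 weeks the smallest p belonged to cldnb Nfu_g_1_022282 (3.75 ± 1.33, but -0.29 without the liver of JM15), cldn7a Nfu_g_1_002610 (1.60 ± 0.68) and cldna (1.17 ± 0.50, and 0.34 without JM15). DESeq2 called 6 at 39 over 5 weeks and 7 over all ages. With single livers left out, at 39 over 5 weeks 5 claudins were called without JM1, 4 without JM61 or JM83 and 1 without JM101, JM13, JM15 or JM98, and over all ages 4 without JM83, 1 without JM100, JM101, JM103 or JM15 and 0 without JM98. At 12 over 5 weeks DESeq2 called 2 higher and 1 lower, and scaling to total counts, which moved the median of all genes by -0.51, left 0 higher and 1 lower. The livers had 0.18, 0.18, 0.53, 0.59 and 0.93 RPKM of cldn11a at 5 weeks, 2.32, 2.73, 2.85, 3.15 and 3.58 RPKM at 12 weeks and 1.59, 3.12, 4.08, 5.61 and 47.6 RPKM at 39 weeks. Every older liver of these ages lay above every liver of 5 weeks (2.94 ± 0.92 at 12 over 5 weeks, adjusted p = 0.036, and 4.35 ± 0.96 at 39 over 5 weeks, adjusted p = 0.00475). The liver of JM12 held the highest value, and without it the change at 39 over 5 weeks was 2.68, still called. Whether testis germ-cell loci have a part in the cldn11a values of livers was not tested.

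cldn19 had 1.54, 1.55, 1.65, 2.55 and 2.89 RPKM in livers of 12 weeks, against 0.44, 0.58, 1.03, 1.39 and 1.43 RPKM at 5 weeks (1.49 ± 0.48, adjusted p = 0.042). The groups did not overlap. The calls of cldn11a and cldn19 at 12 over 5 weeks were each lost without any of 8 single livers. cldn7a Nfu_g_1_002610 was barely counted, with 0.834 ± 0.694 RPKM at 39 weeks, against 0.134 ± 0.0662 RPKM at 5 weeks (2.42 ± 0.70, adjusted p = 0.0266). cldn15la, the leading claudin, had 214, 249, 285, 548 and 684 RPKM at 39 weeks, against 203, 322, 357, 417 and 444 RPKM at 5 weeks, which overlapped (-0.06 ± 0.42, not called). cldn5a had 11.6, 12.7, 16, 16.1 and 20.2 RPKM at 39 weeks, against 5.39, 6.56, 8.01, 8.26 and 8.4 RPKM at 5 weeks. These values do not overlap, but the change of 0.92 ± 0.35 missed the threshold (adjusted p = 0.0838). Other claudins without overlap at 39 over 5 weeks and without a call were cldn19 (1.43 ± 0.48, adjusted p = 0.0536) and the barely counted cldnc Nfu_g_1_016426 (-1.14 ± 0.54, adjusted p = 0.177). At 12 over 5 weeks the older livers lay wholly below the younger for cldn1 (2.17 ± 1.31 RPKM at 12 weeks, against 10 ± 5.05 RPKM at 5 weeks, -1.75 ± 0.61, adjusted p = 0.0562), cldn15a Nfu_g_1_005145 (-2.12 ± 1.07, adjusted p = 0.194) and cldnc Nfu_g_1_016426 (-1.27 ± 0.56, adjusted p = 0.133), with no call. Over all 5 ages the calls were cldn11a and cldnc Nfu_g_1_016426.

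Single livers stood high for claudins of skin or intestine. The 39-week liver of JM15 had 21.1 RPKM of cldni, 17.3 of cldnb Nfu_g_1_022282 and 70.7 of cldna, against 0.1 to 0.39, 0 to 0.32 and 5.78 to 11.5 RPKM in the other livers of 39 weeks. Its keratinocyte loci read 4.03, against 2.39 to 3.80 in the others. cldn15a Nfu_g_1_021964, whose mammalian counterpart forms cation pores in the intestine, reached 79.7 RPKM in JM1 at 39 weeks and 29.2 RPKM in JM100 at 5 weeks. In these livers 37 intestinal loci (a list chosen after the data were seen) read 2.18, against -1.23 to 1.68 in the others of 39 weeks, and 2.33, against -1.70 to -1.39 in the others of 5 weeks. The part of these loci in the result was not tested.

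Whether skin and liver differed in their change at 39 over 5 weeks was tested directly, and 4 of 30 claudins were called, with 20.7% of all genes (7.78% above 0, 13% below). The difference, skin minus liver, was -5.48 ± 1.00 for cldn11a (adjusted p = 0.000133), 2.45 ± 0.64 for cldn1 (adjusted p = 0.00526), -3.25 ± 1.1 for cldn15a Nfu_g_1_021964 (adjusted p = 0.0309) and 2.86 ± 0.99 for cldnc Nfu_g_1_016426 (adjusted p = 0.0339). The cldn15a and cldnc loci failed the filter on low counts in untreated skins alone. Their medians over untreated and vehicle skins were 0.19 and 0.07 RPKM. They were tested here through the liver, where neither change at 39 over 5 weeks was called (edgeR adjusted p = 0.238 and 0.177). cldn11a thus fell in skin where it rose in liver. Some fish gave both tissues, 2 of 5 weeks and 4 of 39 weeks, and 12 over all 5 ages. In these fish alone, an alternative chosen after the data were seen, 1 claudin was called with the fish as a replicate block and 1 without it, cldn11a both times (-5.37 and -5.23). With the block cldn1 was at 1.99 and cldn15a Nfu_g_1_021964 at -2.89, and neither was called. For cldn1 the change was 1.88 ± 0.24 in skin and -0.57 ± 0.59 in liver, the second not called. Without the liver of JM1 the value of cldn15a Nfu_g_1_021964 was -1.95 and not called, and its call was also lost without any of 6 other single libraries. Without the liver of JM15 9 claudins were called, and without the skin of JM95 2. Scaling to total counts, with a shift of the median of -0.44, gave 1 call above 0 and 2 below.

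In the liver several claudins differed between rotenone and vehicle fish. Of 17 tested, 6 were called against vehicle at 27 weeks, 5 higher and 1 lower, where 26% of all genes were called, 13.9% higher and 12% lower. The claudins' median was 0.36, against -0.08 over all genes. The rotenone livers had 4.13, 9, 12.2, 15 and 19.1 RPKM of cldn1, against 2, 2.2, 2.33, 2.52 and 4.4 RPKM in vehicle livers (2.15 ± 0.31, adjusted p = 0.0012). Only the lowest rotenone liver, of MR26, fell within the vehicle range, below the vehicle liver of MC7.

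cldna had 8.71, 9.5, 10.4, 15 and 18.2 RPKM in rotenone livers, against 3.58, 4.05, 4.86, 4.95 and 7.94 RPKM in vehicle livers (1.35 ± 0.27, adjusted p = 0.0033). cldn15a Nfu_g_1_021964 had 5.71, 6.6, 6.89, 8.13 and 8.71 RPKM, against 2.06, 2.75, 3.11, 3.36 and 5.53 RPKM (1.15 ± 0.32, adjusted p = 0.0172). For both, every rotenone liver was above every vehicle liver. Lower was cldn11a, with 0.39, 0.56, 1.18, 2.27 and 2.88 RPKM under rotenone, against 3.06, 6.57, 6.91, 9.96 and 11.5 RPKM in vehicle (-2.37 ± 0.45, adjusted p = 0.00287), again without overlap. The part of testis germ-cell loci in the cldn11a values of these livers was not tested. cldnc Nfu_g_1_022147 rose by 1.82 ± 0.53 (1.71 ± 1.15 against 0.498 ± 0.347 RPKM, SD, n = 5 each) and cldnj by 0.69 ± 0.19 (1.29 ± 0.358 against 0.844 ± 0.252 RPKM), with the call of cldnj lost without the liver of MR27. cldn15la stayed the first claudin, with 389 ± 68.6 RPKM under rotenone, against 329.6 ± 43.2 RPKM in vehicle (0.29 ± 0.19, not called).

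**Figure D4:**
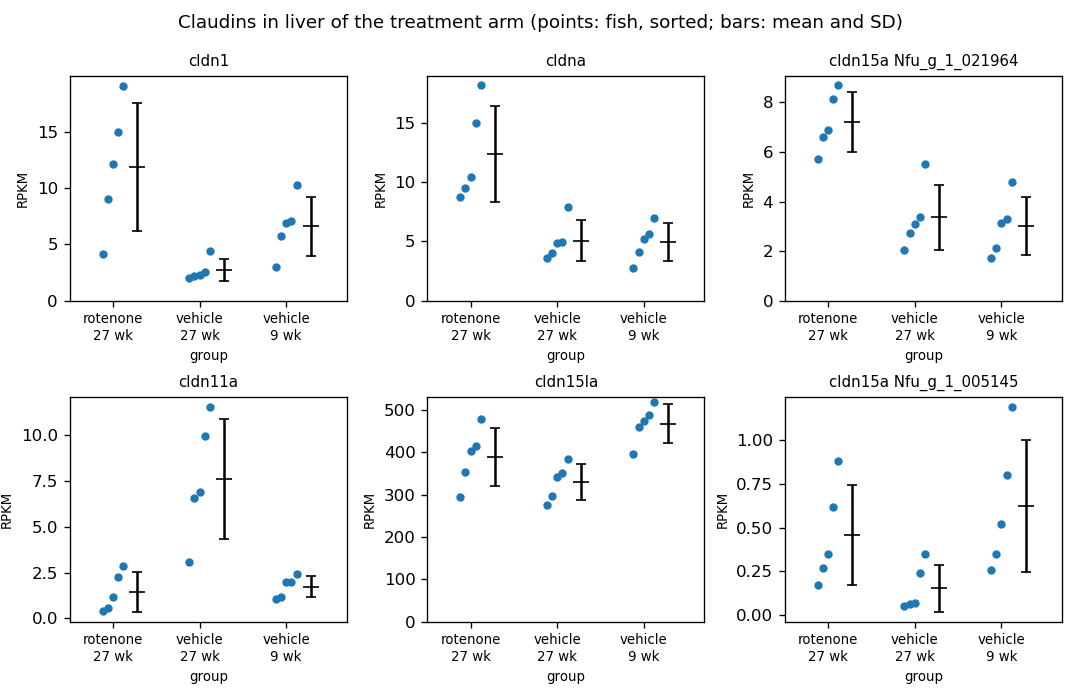
RPKM of 6 claudins in livers of rotenone fish of 27 weeks, vehicle fish of 27 weeks and vehicle fish of 9 weeks, with a point for each of 5 fish and the mean ± SD. cldna and cldn15a Nfu_g_1_021964 are higher and cldn11a lower in every rotenone liver than in every vehicle liver of 27 weeks. cldn15la is higher in vehicle livers of 9 weeks than in vehicle livers of 27 weeks, while the rotenone livers overlap both.

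With vehicle alone, the livers of 27 over 9 weeks had 4 of 17 claudins called, with 12.4% of all genes. This comparison shares the vehicle livers of 27 weeks with that of rotenone, so the values are given side by side and not compared. cldn15la had 276, 296, 341, 351 and 383 RPKM at 27 weeks, against 395, 459.5, 473, 489 and 518 RPKM at 9 weeks (-0.69 ± 0.19, adjusted p = 0.0328), without overlap. cldn11a had 7.61 ± 3.28 RPKM at 27 weeks, against 1.73 ± 0.587 RPKM at 9 weeks (1.93 ± 0.45), cldn1 had 2.69 ± 0.975 against 6.62 ± 2.62 RPKM (-1.50 ± 0.30) and cldn15a Nfu_g_1_005145 had 0.154 ± 0.135 against 0.624 ± 0.377 RPKM (-2.13 ± 0.61). The calls of cldn15la and of cldn15a Nfu_g_1_005145 were each lost without any of 6 single livers, and with scaling to total counts cldn11a alone was called.

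The 25 keratinocyte loci read 2.17 to 2.74 under rotenone, against 1.99 to 2.53 in vehicle, 23 bile duct and liver epithelium loci 1.75 to 2.23 against 1.89 to 2.1, 17 endothelial loci 2.37 to 2.62 against 2.67 to 3.25, and 20 pancreatic enzyme loci, a list chosen after the data were seen, 7.09 to 8.87 against 5.61 to 8.45 (mean log2 CPM). Endothelial loci did not overlap between the groups, while the other 3 lists did. Of genes under 1000 bases 17.5% were called higher and 7.77% lower, against 9.49% and 17.5% of genes over 4000 bases. Their part in the result was not tested. Of 55 tight junction partners 3 were called higher and 8 lower, against 13.9% and 12% of all genes, with the scaffolds inadl Nfu_g_1_013555 at -0.85 ± 0.15 and magi1a Nfu_g_1_001604 at -1.18 ± 0.23.

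In the brain 1 of 22 claudins was called against vehicle, with 8.69% of all genes (3.26% higher, 5.43% lower). CLDND1 (1 of 2) had 9.99, 10.7, 10.9, 11.1 and 11.3 RPKM in rotenone brains, against 12.3, 12.7, 13.1, 13.1 and 13.5 RPKM in vehicle brains (-0.30 ± 0.08, adjusted p = 0.0295). The groups did not overlap, but the call was lost without any of 7 of the single brains of the fit, without the brain of MC10 the count was 2, and DESeq2 called 1 higher and 3 lower. cldn19 had 114 ± 24 RPKM under rotenone, against 127 ± 14.1 RPKM in vehicle (-0.20 ± 0.14, not called), and cldn5a 1.4 ± 0.358 against 1.34 ± 0.242 RPKM (0.03 ± 0.29, not called). Between vehicle brains of 27 and 9 weeks 0 of 22 were called by edgeR or by DESeq2, with 2.09% of all genes called (1.2% higher) and 5 claudins at an unadjusted p under 0.05. Without the brain of MC10 1 was called. The smallest p belonged to cldnf (1.04 ± 0.37), cldn11a (0.54 ± 0.20) and cldn7a Nfu_g_1_002610 (0.93 ± 0.35).

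In the skin 0 of 27 claudins were called under rotenone, with 12.3% of all genes called, 3 claudins at an unadjusted p under 0.05 and 1 called by DESeq2. The smallest p belonged to CLDND1 (2 of 2) with 10.4 ± 1.59 RPKM under rotenone, against 8.12 ± 1.23 RPKM in vehicle (0.45 ± 0.16, adjusted p = 0.0783), cldn7a Nfu_g_1_002610 (-0.71 ± 0.25, adjusted p = 0.0822, without overlap of the RPKM) and cldn10l2 (1.28 ± 0.54). Without both skins rich in testis germ-cell loci, an alternative chosen after the data were seen, the first 2 were called (0.47 and -0.63). CLDND1 (2 of 2) was also called without the skin of MC10 (0.55) or of MR30 (0.57) alone. cldna had 130.0, 192, 273, 336 and 419.7 RPKM under rotenone, against 348, 356, 396, 419 and 434 RPKM in vehicle (-0.43 ± 0.29, not called). cldn11a had 103 RPKM in the rotenone skin of MR30 and 2.36 to 4.87 RPKM in the other rotenone skins, against 36.2 RPKM in the vehicle skin of MC7 and 2.65 to 3.4 RPKM in the other vehicle skins. These are the same skins in which testis germ-cell loci were high. Between vehicle skins of 27 and 9 weeks 0 claudins were called by edgeR or by DESeq2, with 10.5% of all genes called and 1 claudin at an unadjusted p under 0.05, CLDND1 (2 of 2) with -0.37 ± 0.16. The next smallest p belonged to cldn10l2 (-1.15 ± 0.54) and cldn15a Nfu_g_1_021964 (3.63 ± 1.73, and 0.04 without the skin of MC7). cldna had 348 to 434 RPKM at 27 weeks, against 122 to 314 RPKM at 9 weeks, without overlap and without a call (0.59 ± 0.29, edgeR adjusted p = 0.202). The RPKM of CLDND1 (1 of 2) did not overlap either, with a change of -0.03 ± 0.14.

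Fins clipped at 20 and 10 weeks from the same 45 fish differed in 3 of 23 claudins, 1 higher and 2 lower, where 24.7% of all genes were called. Each fish clipped at 20 weeks had been clipped before at 10 weeks, so age and the earlier clip cannot be told apart. cldn5a had 0.51, 1.77 and 5.24 RPKM at 20 weeks (lowest, median and highest), against 1.18, 2.47 and 7.62 RPKM at 10 weeks, a change of -0.71 ± 0.15 (adjusted p = 0.00028). It was lower at 20 weeks in 32 of 45 fish and higher in 13, so the ages overlapped widely. Within the batches named in the titles, the change was -1.05 in batch 1 (10 fish per lifespan group), where 8 claudins were called, and -0.09, not called, in batch 2 (5 fish per lifespan group), where 0 were. cldn7a Nfu_g_1_009540 had 0.231 ± 0.198 RPKM at 20 weeks, against 0.38 ± 0.306 RPKM at 10 weeks (-0.68 ± 0.19, adjusted p = 0.00491), lower in 32 fish and higher in 11. cldn15a Nfu_g_1_005145 had 0.127 ± 0.0413 RPKM at 20 weeks, against 0.108 ± 0.0319 RPKM at 10 weeks (0.24 ± 0.09, adjusted p = 0.034), higher in 27 fish and lower in 14.

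**Figure D5:**
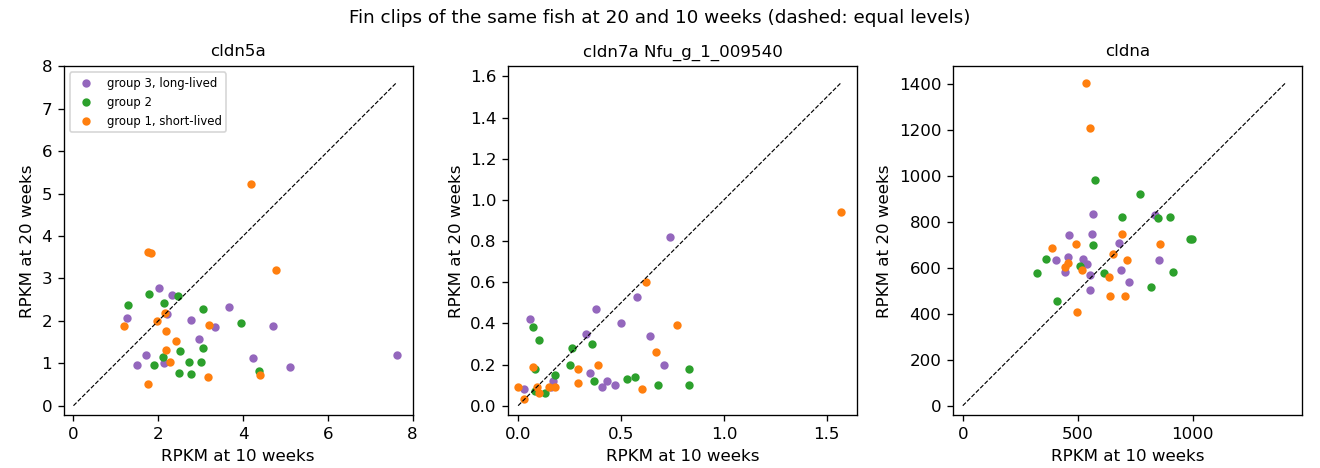
RPKM of cldn5a, cldn7a Nfu_g_1_009540 and cldna in the fin at 20 weeks (vertical axis) and at 10 weeks (horizontal axis) of the same 45 fish, coloured by lifespan group, with the line of equality. For cldn5a and for cldn7a Nfu_g_1_009540 32 fish lie below the line, and for cldna 27 lie above it.

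The leading claudins of the fin were not called between the ages. cldna had 406, 637 and 1406 RPKM at 20 weeks, against 325, 567 and 996 RPKM at 10 weeks (0.15 ± 0.08), higher in 27 and lower in 18 fish. cldni changed by 0.11 ± 0.08, cldn7b by -0.10 ± 0.04 and cldn1 by -0.07 ± 0.05. Of 60 tight junction partners 5 were called higher and 5 lower, where 11.9% and 12.9% of all genes were, with the cingulins cgna at 0.54 ± 0.07 and cgnl1 at -0.58 ± 0.08.

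Long-lived and short-lived fish did not differ in any claudin called, at either clip. edgeR and DESeq2 called 0 of 23 claudins at 10 weeks and 0 of 23 at 20 weeks, and edgeR 0% and 0% of all genes, with 0 claudins at an unadjusted p under 0.05 at 10 weeks and 3 at 20 weeks. At 20 weeks the smallest p belonged to cldn15a Nfu_g_1_005145 (-0.46 ± 0.16), cldn19 and cldnk (-0.42 ± 0.19). cldn19 had 2.53, 4.08 and 7.72 RPKM in long-lived fish (lowest, median and highest of 15), against 3.02, 5.03 and 14.7 RPKM in short-lived fish (-0.47 ± 0.17, edgeR adjusted p = 1). At 10 weeks the smallest p belonged to cldn15a Nfu_g_1_005145 (-0.32 ± 0.16), CLDND1 (1 of 2) (0.17 ± 0.10) and cldn7a Nfu_g_1_002610 (0.43 ± 0.30). For cldna, the difference was 0.02 ± 0.15 at 10 weeks and -0.06 ± 0.13 at 20 weeks.

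Some claudins had next to no reads. Both cldnd loci, cldn10 Nfu_g_1_008792 and CLDN22 passed the filter on low counts in no comparison, with at most 3, 7, 5 and 13 counts in any of 185 libraries. CLDN20 (1 of 2) and cldnb Nfu_g_1_016416 never passed 1.4 RPKM, with highest values of 1.4 and 0.96 RPKM. CLDN20 (1 of 2), CLDN22, CLDN23 (2 of 2), cldn2 Nfu_g_1_003046, cldn7a Nfu_g_1_009540 and both cldn17 loci had their highest mean RPKM in the brain, with 0.705, 0.23, 2.53, 0.962, 3.41, 0.565 and 7.69 RPKM in the order named. For cldn17 Nfu_g_1_000452 the mean in skin was 0.458 RPKM. In contrast, cldn1, cldn5a, cldn7b, cldn11a, cldn12, cldn15a Nfu_g_1_005145, cldn19, cldna, cldnh, cldnj and both CLDND1 loci had counts in all 185 libraries.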

How the data were processed

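Tests used the whole-number read counts per gene that the authors deposited, and levels the RPKM table beside it. Per the file headers each table has 185 columns, which were assigned to samples by the library code in the labels. Per the labels' protocols, QIAzol was used for extraction, and TruSeq RNA libraries took around 2.5 µg of RNA (brain, liver, skin) or 1 µg (fin). Per the submitters' processing notes, CASAVA 1.8.0 or 1.8.2 and bcl2fastq 1.8.4 gave the reads, TopHat2 2.0.6 mapped them and featureCounts 1.4.3-p1 counted them. A genome build, annotation or strand setting is not given in the sources used here, and no sequence or position of a claudin is printed. The RPKM were scaled by the authors to gene length and library total: both deposited tables gave 1 length for each of 21030 loci, with 100% of values within 1%.

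Counts were filtered with filterByExpr, scaled with TMM factors and fitted by edgeR's robust quasi-likelihood test (version 4.0.16 under R 4.3.3). Benjamini-Hochberg adjustment ran over the genes tested in each comparison, and a gene was called at an adjusted p under 0.05. Groups of a tissue and arm share 1 estimate of spread, fins were compared between ages with fish as replicate block and between lifespan groups with batch as covariate. The standard error is the log2 fold change divided by the square root of F. Alternatives were RLE size factors, no filter, DESeq2 1.42.0, each library of brain, liver and skin left out (no fin was), the fish block, batches and lifespan groups alone, TMM-scaled CPM per kilobase for levels and, chosen after the data were seen, scaling to total counts, leaving out 2 skins, and skin and liver compared in fish with both tissues. The members and all lists were chosen with earlier results of these data known, and the lists of intestine and pancreatic enzymes after these data were seen.

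Named were the 5 claudins with the highest mean RPKM per tissue, up to 8 called increases and 8 called decreases per comparison whose mean log2 CPM reached 0, the 3 smallest p where none was called, and up to 4 called tight junction partners. Between tissues at 27 weeks the claudins so named are given mainly as counts shared with 9 weeks, and the joint tests of 5 ages give no fold change. Other claudins are named after their values were seen. Marker levels are means of log2 CPM (prior count 2), scaled with TMM factors over all libraries. Total counts ran from 14970721 to 54947376 with a median of 30507776. Within groups the closest pair of libraries had a chi-square of 10.7 for each degree of freedom, well above sampling noise. Tissues of a fish share an animal, and same-fish deviations correlated above 0.1 in 11 of 12 untreated pairs, 21 of 45 vehicle and rotenone pairs and 23 of 45 fin pairs. The fits were tested on simulated data. Figures were drawn with matplotlib 3.10.9 under Python 3.11.15.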

Additional observations from a re-analysis of the deposited data

Results flagged for a closer look

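In 31 of 231 sets of 5 fish tested (13.4%), the RPKM of a claudin in 1 library lay far from its 4 companions. The gap required would arise in about 1 of 20 sets of independent, normally distributed values. RPKM need not be normal and the sets share libraries, so 13.4% cannot be set against that rate. The nearest companion is given beside each value.

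In the skins, the rotenone skin of MR26 stood above its group for cldnb Nfu_g_1_022282 (76.8 RPKM, nearest 32.9), cldne Nfu_g_1_016313 (36.2 RPKM, nearest 13.8), cldne Nfu_g_1_022177 (21.8 RPKM, nearest 7.18) and cldnf (10.4 RPKM, nearest 4.56). cldn11a stood apart in the rotenone skin of MR30 (103 RPKM, nearest 4.87), the vehicle skin of MC7 (36.2 RPKM, nearest 3.40) and the untreated 39-week skin of JM24 (5.54 RPKM, nearest 1.58). cldn17 Nfu_g_1_000511 did so in JM116 at 12 weeks (6.66 RPKM, nearest 3.44) and JM95 at 5 weeks (2.85 RPKM, nearest 1.66). Among untreated skins of 20 and 27 weeks the same was seen for cldnk in JM88 (8.60 RPKM, nearest 6.13), cldn7a Nfu_g_1_002610 in JM62 (4.70 RPKM, nearest 2.48) and cldnj in JM83 (2.41 RPKM, nearest 1.43).

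In the livers of 39 weeks, JM15 stood apart for cldna (70.7 RPKM, nearest 11.5) and cldn1 (23.6 RPKM, nearest 6.98), JM1 for cldn15a Nfu_g_1_021964 (79.7 RPKM, nearest 11.7) and cldn15a Nfu_g_1_005145 (5.46 RPKM, nearest 1.06), and JM12 for cldn11a (47.6 RPKM, nearest 5.61). At 20 weeks JM85 did so for cldn7b (54.0 RPKM, nearest 21.6) and cldn15a Nfu_g_1_005145 (13.3 RPKM, nearest 1.79), and JM75 for cldn7a Nfu_g_1_002610 (1.39 RPKM, nearest 0.29). At 27 weeks JM72 did so for cldn15a Nfu_g_1_005145 (16.1 RPKM, nearest 1.04) and JM61 for cldna (28.6 RPKM, nearest 9.19), and at 5 weeks JM100 for cldn7b (48.7 RPKM, nearest 9.76) and cldn15a Nfu_g_1_021964 (29.2 RPKM, nearest 4.17). Among vehicle livers of 27 weeks, MC9 was high for cldn7b (28.6 RPKM, nearest 7.02) and low for cldn2 Nfu_g_1_012236 (5.78 RPKM, nearest 11.5), and MC7 was high for cldn1 (4.40 RPKM, nearest 2.52). At 9 weeks the vehicle liver of MC2 was low for cldn5a (7.37 RPKM, nearest 12.4).

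In the brains, MC10 of the 27-week vehicle fish was low for CLDN20 (2 of 2) (5.28 RPKM, nearest 17.4) and high for cldn12 (14.5 RPKM, nearest 11.9), and MC4 of the 9-week vehicle fish was high for cldn19 (198 RPKM, nearest 165).

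The change at 39 over 5 weeks differed between skin and liver, by the age by tissue term, for cldn11a (-5.48, skin minus liver on the log2 scale), cldn15a Nfu_g_1_021964 (-3.25), cldnc Nfu_g_1_016426 (2.86) and cldn1 (2.45). The cldn15a and cldnc loci had too few counts in untreated skins to be tested there alone.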

How the results depend on the processing

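Over all pairs of a log2 fold change named by rule and an alternative, 3217 kept direction and call, 118 lost the call, 6 gained it and 5 turned. The 5 that turned, given as alternative against reported, were cldn12 (0.33 against -0.40) and CLDND1 (2 of 2) (0.44 against -0.32) in skin over liver at 9 weeks and cldn12 at 27 weeks (0.36 against -0.49) with total counts, CLDND1 (1 of 2) in long-lived over short-lived fins at 10 weeks in batch 2 (-0.0104 against 0.17), and cldnb Nfu_g_1_022282 in liver at 39 over 12 weeks without JM15 (-0.29 against 3.75, and up to 4.10 without other livers). Besides what scaling itself sets, the cause was not tested.

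Claudins called moved as follows, with the reported count in brackets and without the share of all genes called in each alternative. Total counts gave 7 (12) in skin at 39 over 12 weeks, 1 (2) in liver at 12 over 5 weeks, 4 (2) at 39 over 5 weeks, 4 (2) over all ages, 1 (4) in vehicle livers at 27 over 9 weeks and 1 (0) in skin under rotenone. DESeq2 gave 1 (0) in liver at 39 over 12 weeks, 6 (2) at 39 over 5 weeks, 7 (2) over all ages, 4 (1) in brain and 1 (0) in skin under rotenone. No filter gave 1 (2) in liver at 12 over 5 weeks. Leaving out both skins that stand apart gave 2 (0) in skin under rotenone. Between fins of 20 and 10 weeks (3), batch 1 gave 8, batch 2 gave 0, and lifespan groups 1, 2 and 3 gave 0, 1 and 0.

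With 1 library left out, the counts ran over 22 to 25, 25 to 30 and 22 to 26 for skin over liver, skin over brain and brain over liver at 9 weeks, 20 to 23, 22 to 23 and 21 to 23 at 27 weeks, 14 to 17 for fin over skin, 4 to 8, 9 to 14, 14 to 19 and 14 to 19 for skin at 12 over 5, 39 over 12, 39 over 5 weeks and any age, 0 to 3, 0 to 0, 1 to 5 and 0 to 4 for liver, 2 to 9 for the difference of skin and liver, 0 to 1, 2 to 6 and 0 to 0 for brain, liver and skin of vehicle fish at 27 over 9 weeks, and 0 to 2, 5 to 9 and 0 to 1 under rotenone.

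Pairing the tissues by fish as a replicate block gave 24, 25 and 23 calls at 9 weeks and 22, 20 and 21 at 27 weeks. It ended the calls of cldnj (-0.46) and cldn15a Nfu_g_1_021964 (3.91) in skin over brain at 27 weeks and no other call reported between these tissues. For the difference of skin and liver at 39 over 5 weeks (4), only fish with both tissues gave 1 call and the same fish with the replicate block 1. Fins without the replicate block gave 2 calls.

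As TMM-scaled CPM per kilobase, brain levels were 85.1 for cldn19 (147 RPKM), 9.5 for CLDN20 (2 of 2) (16.6), 7.71 for CLDND1 (1 of 2) (13.3), 6.05 for CLDND1 (2 of 2) (10.4) and 7.63 for cldn12 (13.2), and liver levels 592 for cldn15la (349), 17.2 for cldn2 Nfu_g_1_012236 (9.87) and 18.2 for cldn5a (11). Both cldnd loci, cldn10 Nfu_g_1_008792 and CLDN22 had too few counts to be tested.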
